A study of Drosophila melanogaster with 20 samples.

Results

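The mitochondrial fusion, fission and quality genes examined here were Marf, fzo, Opa1, Drp1, Fis1, Miro, Pink1 and park. Members were found by gene symbol in the probe annotation. Of the 8 genes, 7 had a probe set named for them alone, and these 7 had 8 of the 18769 tested probe sets, since Fis1 had 2. No probe set carried the name park, so that gene was not analysed here. RNA on Affymetrix arrays came from SL2 cells, an embryonic Drosophila line that resembles blood cells. Knockdown cells had double-stranded RNA (dsRNA) targeting SPS1, the selenophosphate synthetase 1 gene, added to their medium, and untreated cells had none. Harvests were on day 1 (5 samples of each), day 3 (2 of each) and day 5 (2 of each). No control dsRNA was among the samples used here, so the presence of dsRNA and the loss of SPS1 cannot be told apart.

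Mitochondria form a network that is remodelled by fusion and division. Mitofusins (Marf, and fzo in the male germline) join outer membranes, Opa1 joins inner membranes, and Drp1, a dynamin-related GTPase, divides the organelle at sites to which outer-membrane proteins such as Fis1 can recruit it. Miro links mitochondria to the motors that carry them. Pink1, a kinase, accumulates on damaged mitochondria and activates the ubiquitin ligase park, which marks proteins such as Marf and leads to removal of the organelle. Enlarged mitochondria have been reported after SPS1 loss, and the comparison below asks whether the RNA of these genes differed after SPS1 dsRNA. RNA levels do not show protein, processing or activity, through which several of these proteins are regulated.

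Values are log2 signals from RMA, a summary of probe intensities in which 1 unit is a doubling. Array medians lay between 4.53 and 4.69 and upper quartiles between 7.82 and 8.14. The targeted gene had 0 probe sets named for it, so its own level is not shown. Each day 3 group had 1 technical array, which entered as a mean with replicate 2. On these the 3′ actin control probes exceeded the 5′ ones by 1.04 and 1.25 log2 units, against 0.12 to 0.55 on the 18 biological arrays. In the library labelled untreated, day 1 replicate 4, the signal of the vitamin B6 gene sgll was 7.76. It ran from 8.45 to 8.70 in the remaining 4 untreated libraries of that day and from 7.64 to 8.14 in the knockdown. Of the 153 pairwise differences between samples, the 3 largest (up to 0.442 log2 units, root mean square) all involved knockdown replicate 1 of day 5. Of 9 plasmatocyte (blood cell) markers, srp and crq had means above the upper quartiles (10.15 and 8.46), and He was below the array medians (3.63). All neuron, muscle and fat body markers measured, 7 in all, lay below the upper quartiles, and so did the remaining plasmatocyte markers. The highest of those plasmatocyte means, 6.19 for Pxn, lay below that of the neuron marker elav, 6.44. Of 4 listed muscle markers 1 was measured.

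Between untreated and knockdown cells 0 of the 7 measured genes passed the test at day 1, 0 at day 3 and 0 at day 5. The test was limma on all 6 groups together, with Benjamini-Hochberg adjustment over all tested probe sets and a threshold of adjusted p 0.05. Over all probe sets it called 0% at day 1, 0.176% at day 3 and 2.79% at day 5. The labels give replicate numbers that recur in both groups of a day, and samples of the same number varied together. With these numbers as a block, 2 of the 7 were called at day 5, Marf higher and Fis1 lower, where 12.2% of all probe sets were called (5.07% higher and 7.14% lower). In that fit 0 of the 7 were called at day 1 (0% of all) or day 3 (1.25% of all). Unadjusted, 0 of the 7 had p under 0.05 at day 1 (1.55% of all), 0 at day 3 (3.37%) and 1, Fis1, at day 5 (12.6%). Titles call the replicates biological, without saying whether they were separate cultures. The p-values measure the spread between replicates over all 3 days together, moderated by that of other probe sets. They do not measure the spread of day 3 or day 5 alone. Plasmatocyte markers also differed at day 5, where 2 of 9 rose, eater by 3.28 (SE 0.42, adjusted p = 0.00018) and Pxn by 2.35 (SE 0.29, adjusted p = 0.00015). The untreated eater values of that day, 3.84 and 3.86, lay below the array medians. The median of the 9 was 0.40, with 8 above 0 and 1, crq, below. In the block fit 4 of 9 were called higher, also Hml (0.93, adjusted p = 0.0076) and Col4a1 (0.41, adjusted p = 0.023). The log2 of the summed signal of the 9 was 10.48 and 10.996 in untreated replicates 1 and 2 of that day and 10.86 and 11.45 in the knockdown. Within the pairs the knockdown sample was thus higher by 0.38 and 0.46. The brightest markers, srp and crq, weigh most in that sum. In limma srp differed by 0.28 (adjusted p = 0.71) and crq by -0.22 (adjusted p = 0.85), neither called in either fit. The part of these 9 markers in the values of the mitochondrial genes was not tested.

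**Figure D1:**
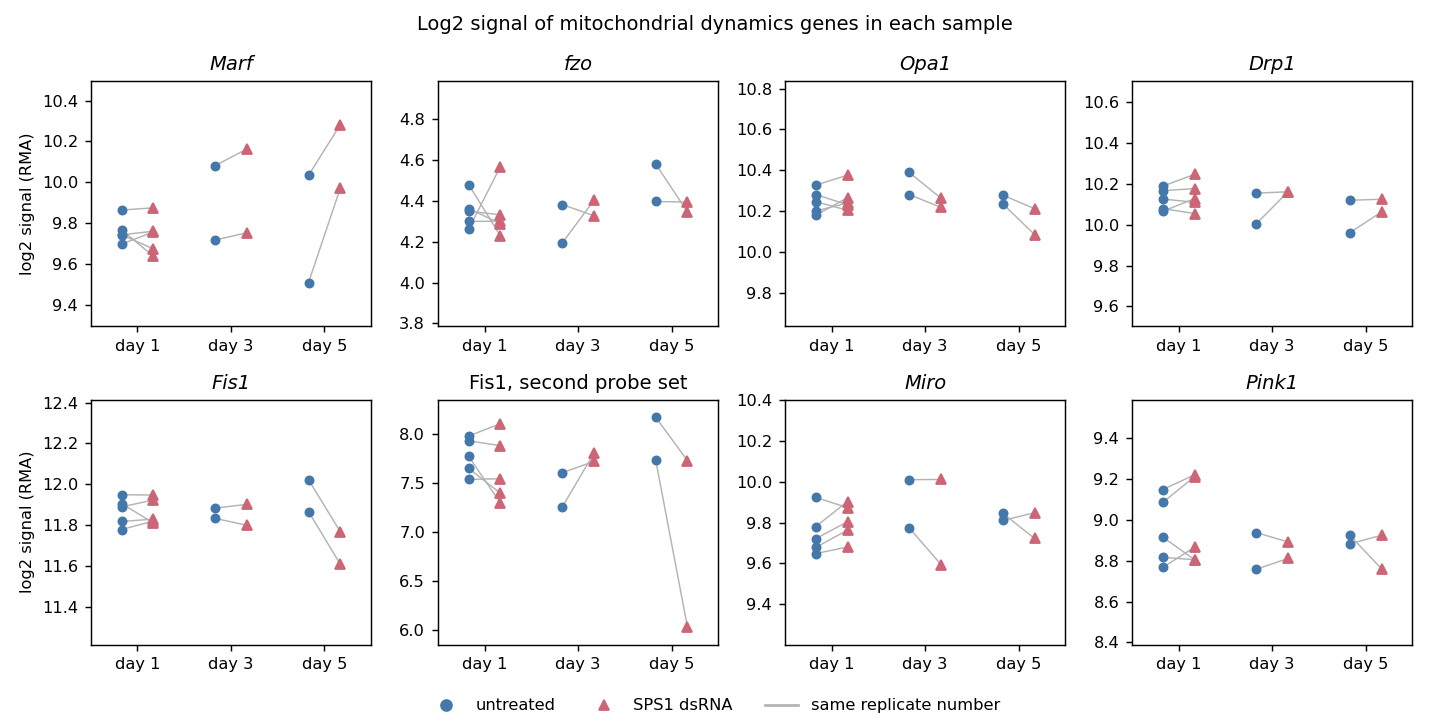
Log2 RMA signal (vertical axis) of the 8 probe sets in the 18 samples by day of harvest; circles are untreated samples, triangles SPS1 dsRNA samples, and grey lines join samples of the same replicate number. Each panel spans 1.2 log2 units, except the second probe set of Fis1, which spans 2.5. At day 5 both lines run upward for Marf and Drp1, and downward for Opa1, fzo and both Fis1 probe sets. For Drp1 (0.005) and fzo (-0.003) 1 line is nearly flat.

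Marf, the mitofusin of body cells, measured 9.86, 9.74, 9.74, 9.77 and 9.70 in untreated replicates 1 to 5 of day 1 and 9.88, 9.76, 9.67, 9.64 and 9.76 in the knockdown. At day 3 untreated replicates 1 and 2 measured 9.72 and 10.08, and the knockdown replicates 9.75 and 10.16. At day 5 the untreated replicates measured 9.51 and 10.03, and the knockdown replicates 9.97 and 10.28. The groups overlapped on every day, and at days 3 and 5 replicate 2 lay above replicate 1 in both groups. Within the day 5 pairs the knockdown sample was higher by 0.46 and by 0.25.

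The day 5 difference of Marf was 0.36 log2 units (1.28-fold, SE 0.17, 95% interval -0.00097 to 0.71, adjusted p = 0.40 in limma). With the replicate block the SE was 0.08 and adjusted p = 0.014. This difference lay at the 95.3rd percentile of all probe sets at day 5. At day 1 the difference was -0.02 (SE 0.11) and at day 3 it was 0.06 (SE 0.17). The day 5 difference exceeded that of day 1 by 0.38 (SE 0.20, adjusted p = 0.62), and with the block adjusted p = 0.035, where 6.82% of all probe sets were called. Leaving out untreated replicate 1 of day 5 made the difference 0.09, and leaving out untreated replicate 2 made it 0.62, both uncalled. In the block fit the call was lost without replicate 1 of either day 5 group (0.25, adjusted p = 0.28) and kept without replicate 2 (0.46, adjusted p = 0.022).

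The gene fzo, fuzzy onions, encodes the mitofusin that builds the fused mitochondria of sperm precursors. Its values ran from 4.26 to 4.48 in untreated and from 4.23 to 4.57 in knockdown samples of day 1. At day 5 they were 4.40 and 4.58 untreated and 4.39 and 4.35 in the knockdown. The mean over all samples, 4.36, lay below the array medians, as did 7 of 8 testis markers (lowest mean 2.93 for dj). The day 5 difference was -0.12 (SE 0.11, 95% interval -0.36 to 0.12, adjusted p = 0.78). RMA understates folds at such signals, so this interval bounds only the measured signal.

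Opa1, the inner-membrane fusion GTPase, had values from 10.18 to 10.33 in untreated and from 10.20 to 10.38 in knockdown samples of day 1. At day 3 it measured 10.28 and 10.39 untreated and 10.22 and 10.26 in the knockdown. At day 5 it measured 10.24 and 10.28 untreated and 10.09 and 10.21 in the knockdown. With 2 samples per group a lack of overlap is a weak criterion, and its share over all probe sets was not counted. The knockdown samples were the lower ones at days 3 and 5, with no overlap at either day. These differences were -0.09 at day 3 (SE 0.09, adjusted p = 1) and -0.11 at day 5 (SE 0.09, adjusted p = 0.72). Leaving out 1 library moved them to between -0.1485 (without untreated replicate 1) and -0.0405 (without untreated replicate 2) at day 3, and to between -0.172 (without knockdown replicate 2) and -0.045 (without knockdown replicate 1) at day 5. With array medians subtracted the day 5 value was -0.18 and with cyclic loess -0.025, all of them uncalled. The 95% interval at day 5 ran from 0.816 to 1.05 times the untreated level. With the block adjusted p was 0.40 at day 5. The day 5 difference lay at the 24.6th percentile of all probe sets.

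Drp1, the GTPase of division, measured 10.07 to 10.19 in untreated and 10.06 to 10.25 in knockdown samples of day 1. The day 5 values were 9.96 and 10.12 untreated and 10.06 and 10.13 in the knockdown, which overlap. The difference was 0.02 at day 1 (SE 0.06), 0.08 at day 3 (SE 0.09) and 0.05 at day 5 (SE 0.09, adjusted p = 0.90). The day 5 interval of Drp1 ran from 0.908 to 1.19 times the untreated level, and that of day 1 from 0.93 to 1.10 times.

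Fis1, the outer-membrane adaptor, was measured by 2 probe sets. The brighter one measured 11.95, 11.91, 11.78, 11.82 and 11.89 in untreated replicates 1 to 5 of day 1 and 11.95, 11.81, 11.82, 11.83 and 11.92 in the knockdown. At day 3 untreated replicates measured 11.83 and 11.88, and knockdown replicates 11.80 and 11.90. At day 5 the untreated replicates measured 11.87 and 12.02, and the knockdown replicates 11.61 and 11.77. The groups overlapped at days 1 and 3 and did not at day 5. With 2 samples per group this is a weak criterion, and its share over all probe sets was not counted. Both pairs of day 5 had nearly the same difference, -0.26 in replicate 1 and -0.26 in replicate 2.

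The day 5 difference of this Fis1 probe set was -0.26 log2 units (1.19-fold lower, SE 0.09, 95% interval -0.46 to -0.06, adjusted p = 0.22 in limma), the lowest p of any member's main probe set. With the replicate block the SE was 0.07 and adjusted p = 0.035. Without untreated replicate 4 of day 1 the block fit gave adjusted p = 0.052, and without replicate 1 or replicate 2 of either day 5 group 0.24 and 0.14. At days 1 and 3 the differences were -0.0018 (SE 0.06) and -0.01 (SE 0.09). The day 5 difference lay at the 10.4th percentile of all probe sets. It was lower than that of day 1 by 0.25 (difference -0.25, SE 0.11, adjusted p = 0.47, and 0.099 with the block).

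The dimmer Fis1 probe set gave a larger day 5 difference with a larger spread. It measured 7.73 and 8.17 in untreated replicates of day 5 and 6.03 and 7.72 in the knockdown. The low value came from knockdown replicate 1, the sample involved in the 3 largest pairwise differences. The knockdown SD was 1.20 (n = 2), against 0.34 at day 1 (n = 5). The difference was -1.07 (SE 0.37, adjusted p = 0.18, and 0.011 with the block). Without knockdown replicate 1 it was -0.23 (adjusted p = 0.90), and without knockdown replicate 2 it was -1.92 (adjusted p = 0.00089). At day 3 the same probe set differed by 0.33 (SE 0.37), while the brighter one differed by -0.01. So at day 5 both probe sets had a lower knockdown mean, and the size at the dimmer one rested on 1 library.

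**Figure D2:**
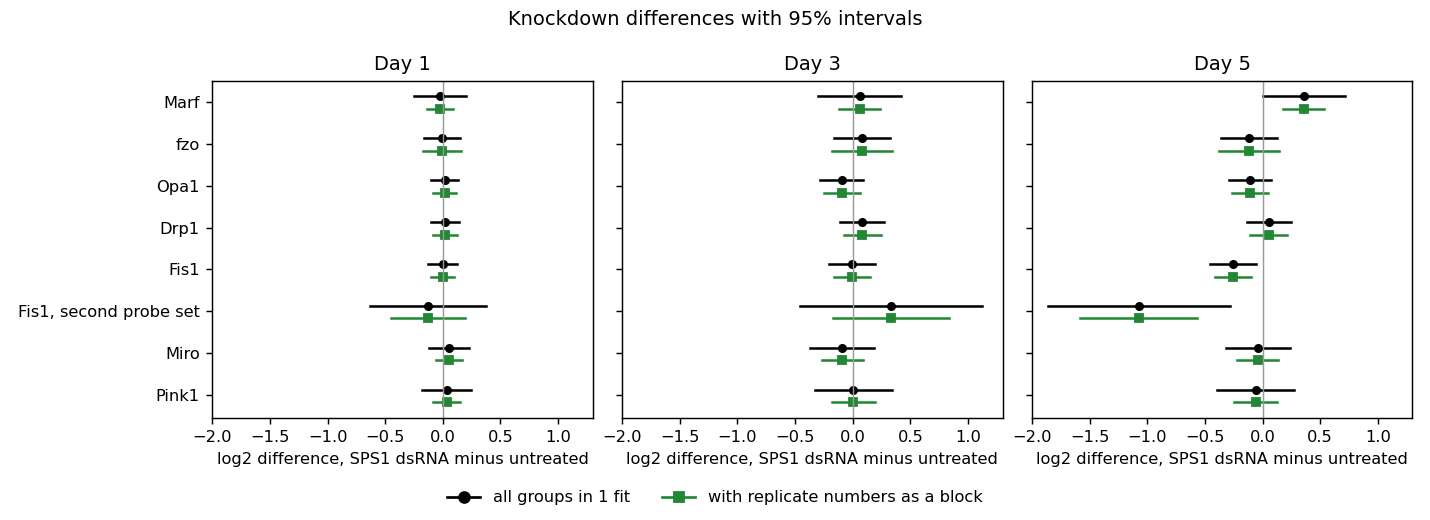
Log2 difference between SPS1 dsRNA and untreated samples (horizontal axis) for each probe set on days 1, 3 and 5, with 95% intervals from limma; black circles are the fit without the replicate block and green squares the fit with it. Points lie near 0 at day 1. At day 5 the green intervals of Marf and of both Fis1 probe sets exclude 0. The black intervals of both Fis1 probe sets do so too, and that of Marf just includes 0. Intervals are not adjusted for the number of probe sets.

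Miro, the GTPase that couples mitochondria to motors, measured 9.65 to 9.92 in untreated and 9.68 to 9.90 in knockdown samples of day 1. At day 5 it measured 9.85 and 9.81 untreated and 9.72 and 9.85 in the knockdown. The day 5 pairs went opposite ways, -0.12 and 0.04. The difference was -0.09 at day 3 (SE 0.13) and -0.04 at day 5 (SE 0.13, adjusted p = 0.95), with a day 5 interval from 0.801 to 1.18 times the untreated level.

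Pink1, the kinase that signals mitochondrial damage, had values that split at day 1 by replicate number rather than by treatment. Replicates 1 and 5 measured 9.09 and 9.15 untreated and 9.21 and 9.22 in the knockdown. Replicates 2, 3 and 4 measured 8.82, 8.77 and 8.92 untreated and 8.81, 8.87 and 8.81 in the knockdown. At day 5 the values were 8.93 and 8.88 untreated and 8.76 and 8.93 in the knockdown. The differences were 0.03 at day 1 (SE 0.10), 0.00 at day 3 (SE 0.16) and -0.06 at day 5 (SE 0.16, adjusted p = 0.94). The day 5 interval of Pink1 ran from 0.76 to 1.21 times the untreated level. The name of this probe set ends in _s_at, by which Affymetrix marks sets whose probes can match several transcripts.

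Over the 7 genes the median difference was 0.02 at day 1, 0.00 at day 3 and -0.06 at day 5, beside 0.00, 0.00 and 0.01 over all probe sets. Over probe sets with a mean signal above 6 the day 5 median was -0.08, so the members' median lay near it. At day 5, 2 of the 7 lay above 0 (Marf and Drp1) and 5 below, and Drp1 turned to -0.026 without untreated replicate 1 of that day and to -0.0135 with array medians subtracted. Of tests that compared the knockdown difference between days, 0 of the 7 genes were called for day 3 against day 1 (0.0213% of all probe sets), 0 for day 5 against day 1 (1.4%) and 0 for day 5 against day 3 (0.0959%). In untreated cells 0 of the 7 were called between day 3 and day 1 (0.107% of all) and 0 between day 5 and day 1 (0.186%). With an unadjusted p under 0.05 the first 3 of these comparisons held 0, 1 (Fis1) and 0 of the 7, beside 2.34%, 9.25% and 4.17% of all, and the untreated ones 0 and 0, beside 6.37% and 10.8%.

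Over the 18 samples the named genes whose log2 signal most resembled that of the brighter Fis1 probe set were Jwa (Pearson r = 0.894, Spearman rho = 0.831), crb (0.894 and 0.736) and TMEM216 (0.886 and 0.738). They are the top of 13645 probe sets, so these values are a description and carry no test. Samples of the same replicate number varied together, so the 18 points are not independent. Without the 2 samples farthest from the median of Fis1, r was 0.825, 0.722 and 0.731. Among the other members r with Fis1 ran from -0.0066 for Miro to 0.58 for Opa1.

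Genes that act with these members were examined in 5 lists. Of 15 fusion, fission and shape partners 10 were measured, and 0 passed at any day, also with the block (0 at day 5 by unadjusted p under 0.05, beside 12.6% of all probe sets). The median day 5 difference was -0.07, beside 0.01 over all probe sets and -0.08 over those with a mean above 6, as all 10 had (lowest mean 8.10), with 3 above 0 and 7 below. Miga, mitoguardin, an outer-membrane protein that promotes fusion, was at -0.35 (SE 0.18, adjusted p = 0.48). The channel gene porin was at -0.15 (SE 0.10, adjusted p = 0.64).

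All 28 listed mitophagy and autophagy genes were measured, and 0 passed at any day (6 by unadjusted p under 0.05 at day 5, beside 12.6% of all). Their day 5 median was 0.05, with 17 above 0 and 11 below. That median was 0.01 over all probe sets and -0.08 over those with a mean above 6. Pgam5, a mitochondrial phosphatase, was at -0.42 (SE 0.11, adjusted p = 0.062), and Atg3, the enzyme that conjugates Atg8 to lipid, at 0.36 (SE 0.11, adjusted p = 0.11). With the block 4 were called higher at day 5, where 5.07% of all probe sets were, and 2 lower, where 7.14% were. These were chosen after their values were seen. The higher ones were Atg17 (0.51), Atg3, ntc (0.32) and Atg18a (0.29), and the lower ones Atg12 (-0.61) and Pgam5. Both directions thus occurred among genes of autophagosome formation.

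In the proteases and chaperones of mitochondria 0 of 15 passed at any day (2 had an unadjusted p under 0.05 at day 5, beside 12.6% of all). The day 5 median was -0.06, with 4 above 0 and 11 below. That median was 0.01 over all probe sets and -0.08 over those with a mean above 6. Hsc70-5, the mitochondrial Hsp70, was at -0.26 (SE 0.09, adjusted p = 0.17), and the prohibitin Phb2 at -0.26 (SE 0.12, adjusted p = 0.39). With the block 3 were called lower at day 5: Hsc70-5, Phb2 and Roe1 (-0.38), the last chosen after its value was seen. Over all probe sets that share was 7.14%.

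Of 16 genes of mitochondrial DNA and biogenesis 13 were measured and 0 passed at any day (4 by unadjusted p at day 5, beside 12.6% of all). Their day 5 median was -0.11, with 3 above 0 and 10 below. That median was 0.01 over all probe sets. It was -0.08 over those with a mean above 6, as all 13 had (lowest mean 6.19). Farthest from 0 was mtDNA-helicase, which unwinds mitochondrial DNA for replication, at -0.75 (SE 0.21, adjusted p = 0.075). The RNA-binding gene bsf was at -0.22 (SE 0.10, adjusted p = 0.33). With the block 2 were called lower, beside 7.14% of all probe sets. They were mtDNA-helicase (adjusted p = 0.0061) and mtSSB (-0.31, adjusted p = 0.023), which binds single-stranded mitochondrial DNA and was chosen after its value was seen.

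Of 19 mitochondrial protein import genes 13 were measured and 0 passed at any day. At day 5, 2 had an unadjusted p under 0.05, beside 12.6% of all. Of the 13 measured, 4 had means below the array medians and thus below 6. The day 5 median over the list was -0.09, with 6 above 0 and 7 below. That median was 0.01 over all probe sets and -0.08 over those with a mean above 6. Tim9a, a small chaperone of the intermembrane space, was at -0.40 (SE 0.11, adjusted p = 0.073), and Tim17b, a channel subunit, at 0.18 (SE 0.08, adjusted p = 0.33). With the block Tim9a was called lower at day 5 (adjusted p = 0.0074), where 7.14% of all probe sets were, and Tim17a1 at day 3 (-0.44, adjusted p = 0.047), where 0.884% of all probe sets were called lower. Tim17a1 was chosen after its value was seen, and its mean over all samples, 3.81, lay below the array medians.

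**Figure D3:**
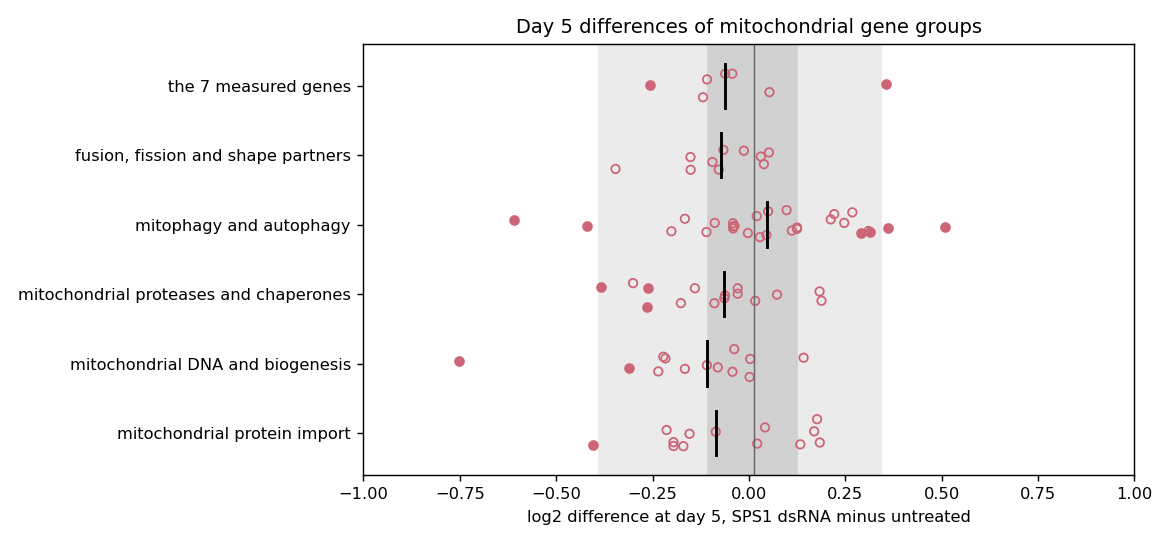
Log2 difference at day 5 between SPS1 dsRNA and untreated samples (horizontal axis) for each measured gene of 6 groups, spread vertically at random within a row; filled points were called with the replicate block, black bars are group medians, and the grey bands span the 5th to 95th and the 25th to 75th percentiles of all probe sets with their median as a line. No point was called without the block, and group medians lie between -0.11 and 0.05.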

How the data were processed

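The log2 values were deposited by the authors after RMA (submitters' processing notes), of unknown version and probe definition here. Titles set the groups, although the source names of the day 5 knockdown label them untreated. Without 183 control probe sets 18769 remained; 13647 had 1 gene symbol, 402 several and 4720 none, and 13544 matched RefSeq (Release 6 plus ISO1 MT) by Entrez identifier. The 20 arrays gave 18 samples. limma 3.58.1 in R 4.3.3 fitted all 6 groups (12 residual and 4.26 prior degrees of freedom), so days with 2 samples per group borrow their spread mostly from day 1. A gene with several probe sets was represented by the one with the highest mean. To check the pairing, each sample's deviation from its group mean was set against that of its same-numbered counterpart over 6843 probe sets with a mean above 6. Pearson's r was 0.689 to 0.838 for the 5 pairs of day 1, 0.782 for day 3 and 0.712 for day 5. The highest r with another replicate number was 0.438 to 0.609 at day 1. With 2 samples per group, both pairs of day 3 share 1 value of r, as do those of day 5. A second fit therefore used the pairs (day by replicate number) as a block. It had 6 residual and 5.41 prior degrees of freedom, and its spread comes mostly from day 1 and from other probe sets. The number of arrays limits the precision. Coordinates are omitted, since the array's build is unknown here. The members and lists were chosen with earlier results of these data known. Named genes were all members and, per list, those past the threshold or, with none, the 2 with the lowest p at day 5; listed genes were matched by current symbol. The fit was tested on simulated data with larger day 5 shifts than those of Marf or the brighter Fis1 probe set. That run checks the code and not the calls made here.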

Additional observations from a re-analysis of the deposited data

How the results depend on the processing

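The count of members called was 0 in each of the 8 comparisons, and it stayed 0 under the alternatives tried (a filter on dim probe sets, median and cyclic loess scaling, other treatment of the technical arrays, only the groups compared, an intensity trend with robust variances, and each sample left out), except with the replicate block, where 2 were called at day 5 and 1 for day 5 against day 1. The block cannot compare untreated cells between days, since it lies within days. In block fits added after seeing the data, 1 was called at day 5 without untreated replicate 4 of day 1 or without replicate 2 of either day 5 group, and 0 without replicate 1. The block changed no other call of a member's main probe set. All these counts take 1 probe set per gene, the one with the highest mean, so they leave out the dimmer Fis1 probe set. Its day 5 difference ran from -1.92 to -0.23 with 1 sample left out, and its calls are given above. Differences near 0 changed sign, none of them called. With 1 sample left out the ranges were, at day 1, -0.056 to 0.0037 for Marf, -0.011 to 0.037 for Opa1, -0.0079 to 0.040 for Drp1, -0.024 to 0.0185 for Fis1, -0.025 to 0.085 for Pink1 and -0.063 to 0.026 for fzo. At day 3 they were -0.15 to 0.26 for Marf, -0.059 to 0.0435 for Fis1, -0.086 to 0.093 for Pink1, -0.30 to 0.12 for Miro and -0.017 to 0.17 for fzo. At day 5 they were -0.026 to 0.13 for Drp1, -0.14 to 0.021 for Pink1 and -0.11 to 0.020 for Miro. Median scaling gave -0.0135 for Drp1 at day 5 and -0.0125 for Pink1 at day 3. Cyclic loess gave 0.033 for Pink1 and 0.047 for Miro at day 5, and 0.0053 and 0.0047 for Fis1 at days 1 and 3. For day 3, Pink1 was at -0.0345 without technical arrays, and Fis1 at 0.006 with them averaged with replicate 1 and at 0.33 by its other probe set. For these the cause was not tested.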
